A study of Drosophila melanogaster with 6 samples.

Results

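The genes described here are the 9 fly receptors for dopamine and octopamine: Dop1R1, Dop1R2, Dop2R and DopEcR for dopamine, and Oamb, Octbeta1R, Octbeta2R, Octbeta3R and Oct-TyrR for octopamine or tyramine. They were chosen by symbol among the 16493 genes in the count matrices, before any cell was selected. Earlier results of these data were already known at that point. All 9 were measured in every library. The study compared brains of control flies (genotype w1118) with brains of flies carrying the deletion allele Appl[d] (genotype Appl[d] w[*], written Appl- here) by single-cell RNA sequencing. Appl is the fly relative of the human amyloid precursor protein, and the allele lacks the central part of the gene in every cell of the animal, while exons at both ends remain. Each genotype had 3 libraries, each from dissociated brains of 20 male and 20 female flies aged 10 days, so that every library pools animals and both sexes. No treatment was applied to either group, and whether the 2 strains share a genetic background is not stated, so that the deletion and the strain cannot be told apart.

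Dopamine and octopamine are amines that act in the insect brain through receptors coupled to G proteins, octopamine taking much of the role that noradrenaline has in vertebrates. Dop1R1 and Dop1R2, the D1-like receptors, raise cAMP, the second messenger made by adenylyl cyclase, as DopEcR can on binding dopamine, and Dop2R, a relative of the vertebrate receptors that inhibit the cyclase, lowers it. Kenyon cells, the intrinsic neurons of the mushroom body, receive dopamine during olfactory learning, and the Rutabaga cyclase in them is needed for memory. The receptors differ in which cells carry them, which single-cell counts can show for all of them side by side.

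The measurement was the number of unique molecular identifiers (UMIs), each standing for 1 captured RNA molecule, per gene and cell, from a kit that reads the 3' end of transcripts. Of 67362 barcodes, 25188 were kept, which had 200 or more detected genes and no more than 10% of their UMIs from mitochondrial genes, 11922 from control and 13266 from Appl- flies, with a median of 2298 to 3178 UMIs per cell in the 6 libraries. Control replicate 1 stood apart, with 29008 barcodes of which only 15.3% were kept, against 36.1% to 68.2% in the other libraries. Kept barcodes shared between any 2 libraries numbered 2 to 16. Appl itself, the check of the genotype labels, stood at 2063, 2316 and 2058 CPM (the usual unit of a gene's UMIs relative to all UMIs of the summed cells, scaled between libraries) in control replicates 1 to 3 and at 205, 255 and 233 CPM in Appl- replicates 1 to 3, 9.29-fold lower. The exons that remain include the end of the gene, which a 3' kit reads.

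Across all kept cells the receptors were detected at very different depths. Dop2R gave 243001 UMIs and was seen in 67.8% of cells, DopEcR gave 68780 UMIs in 79.0% of cells, and Octbeta2R gave 43345 UMIs in 58.1% of cells. Octbeta1R (24384 UMIs), Dop1R1 (21809), Octbeta3R (16129), Dop1R2 (11220) and Oamb (7781) followed, and Oct-TyrR was the least detected, with 3875 UMIs in 10.4% of cells. These counts are of 3' ends and are not scaled by transcript length. They order the genes by how often they were captured, and the precision of what follows is lowest for Oct-TyrR.

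Cells were grouped into 56 clusters without using the 9 receptor genes, and clusters were called after a cell type only from listed marker genes. Clusters 7 and 11 (1380 cells) raised all 8 of 8 Kenyon cell markers and are called Kenyon cell-like. Cluster 22 (285 cells) raised 7 of them together with the dopamine transporter gene DAT, and was kept with the other neuron-like clusters. Clusters 20 and 49 (359 cells) are called glia-like, with repo, the transcription factor that defines most fly glia, at 118 and 297 CPM. Clusters 32 and 44 (304 cells) are called monoaminergic-like from genes of dopamine and octopamine synthesis and transport. Of the 56 clusters, 51 were neuron-like, 24489 cells in all, a name that needed neuron markers to be detected but not raised.

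**Figure D1:**
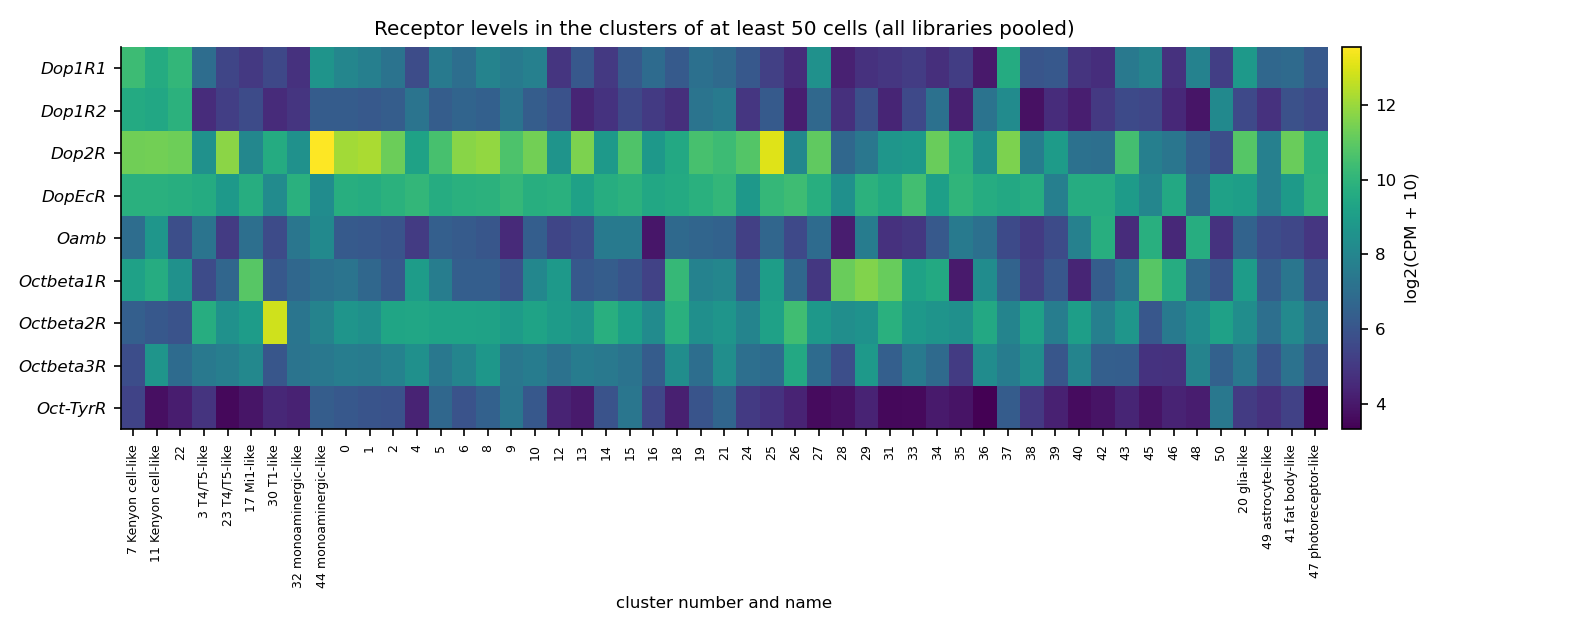
Level of the 9 receptors (rows) in the 51 clusters of at least 50 cells (columns), as log2(CPM + 10) of the UMIs pooled over the 6 libraries, with colour giving the level. Dop1R1 and Dop1R2 are highest in clusters 7, 22 and 11, Dop2R in clusters 44 and 25, and Octbeta2R in cluster 30.

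Dop1R1 and Dop1R2, the D1-like dopamine receptors, were far higher in Kenyon cell-like clusters than in other neurons. Dop1R1, which Kenyon cells need for aversive and appetitive learning, stood at 1443, 1374, 1218, 980, 1195 and 1009 CPM in the Kenyon cell-like cells of control replicates 1 to 3 and Appl- replicates 1 to 3, and at 144 to 192 CPM in the other neuron-like cells of the same libraries. Dop1R2, which has been tied to the forgetting of olfactory memory, stood at 758, 949, 898, 672, 736 and 770 CPM against 73.7 to 85.3 CPM. Every Kenyon cell-like value of both genes lay above every other value. Within libraries Dop1R1 was 7.09-fold higher (log2 2.83, SE 0.10, adjusted p = 4.16e-11 by the quasi-likelihood test of edgeR, adjusted over 7267 genes by Benjamini and Hochberg) and Dop1R2 10.0-fold higher (log2 3.33, SE 0.09, adjusted p = 2.56e-12).

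Of the 9 receptors 4 were called higher and 2 lower in Kenyon cell-like clusters, a call being an adjusted p under 0.05 with a log2 difference of at least 0.32 in either direction, and of all genes tested 21.1% were called higher and 22.8% lower. The members' median log2 difference was 0.31, beside -0.02 over all genes tested. Oamb, the alpha-adrenergic-like octopamine receptor that raises calcium, averaged 216 ± 35.2 CPM in Kenyon cell-like cells (SD, n = 6 libraries) and 78.3 ± 7.68 CPM in other neurons, a log2 difference of 1.45 (SE 0.11). Octbeta1R, one of the beta-adrenergic-like octopamine receptors, averaged 684 ± 74.1 and 245 ± 61.5 CPM, a log2 difference of 1.51 (SE 0.08). Octbeta2R, a related receptor that raises cAMP, went the other way, with 71.2 ± 28.4 CPM against 520 ± 63.6 CPM and a log2 difference of -2.84 (SE 0.17). For these 3 genes no Kenyon cell-like library overlapped with a library of other neurons.

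The sixth call was Oct-TyrR, a receptor that responds more strongly to tyramine than to octopamine and lowers cAMP. It read 40.2, 40.6 and 42.7 CPM in the Kenyon cell-like cells of controls and 3.37, 9.66 and 13.3 CPM in those of Appl- flies, against 37.5 to 52.8 CPM in other neurons (log2 -0.90, SE 0.27, adjusted p = 0.0117). It was lower than in the other neurons of the same library in 6 of 6 libraries, by little in the controls and by more in the Appl- flies. Dop2R (log2 0.06, adjusted p = 0.456), DopEcR (log2 0.31, adjusted p = 0.0058, under the fold threshold) and Octbeta3R (log2 -0.23, adjusted p = 0.0205, under the fold threshold) were not called. The 6 calls were made under all 17 alternative settings tried.

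**Figure D2:**
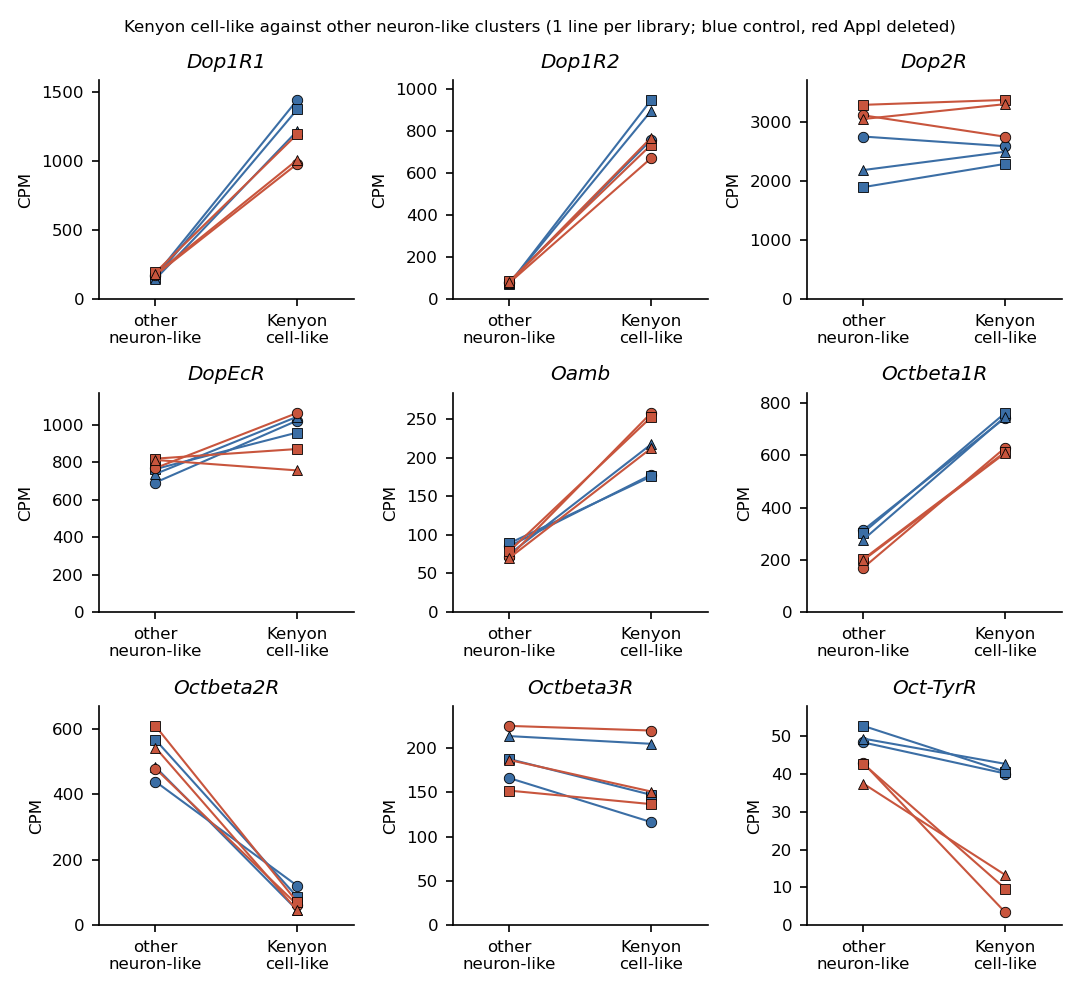
Level of the 9 receptors in CPM (linear axis from 0) in the other neuron-like cells and in the Kenyon cell-like cells of each library, 1 line per library, with control in blue, Appl- in red and a symbol for each replicate number. For Dop1R1, Dop1R2, Oamb and Octbeta1R every line rises and for Octbeta2R every line falls, while Oct-TyrR reads 13.3 CPM or less in the Kenyon cell-like cells of the 3 Appl- libraries.

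In single cells the same order was seen. With every cell thinned to 500 UMIs, so that depth was equal, a Dop1R1 UMI was found in 42.3% of Kenyon cell-like cells, 6.72% of other neuron-like cells and 6.06% of fat body-like cells, the reference used for free RNA. The unthinned shares were 91.2%, 24.4% and 13.6%, at median depths of 4247, 2606 and 2064 UMIs. For Dop1R2 the thinned shares were 30.1%, 3.33% and 0.758%, and for Octbeta2R they were 3.77%, 21.7% and 12.1%. The share of Octbeta2R in Kenyon cell-like cells was below that of the fat body-like cells and is not read as expression. Of those 132 cells 79, 4 and 46 came from control replicates 1 to 3 and 1, 2 and 0 from Appl- replicates 1 to 3, and whether fat body cells lack these receptors was not tested.

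Among the 3 clusters with raised Kenyon cell markers the receptors were not alike. Cluster 7 had ab at 913 CPM and sNPF at 4028 CPM, cluster 11 had Fas2 at 970 CPM and little ab (64.5 CPM), and cluster 22 had trio at 1122 CPM and little sNPF (76.8 CPM); these genes vary among Kenyon cell types, and the clusters were given no further names. Oamb read 97.9 to 124 CPM in cluster 7, 339 to 449 CPM in cluster 11 and 25.6 to 74.8 CPM in cluster 22 over the 6 libraries. Octbeta3R, a beta-like octopamine receptor, read 31.1 to 56.6 CPM, 312 to 618 CPM and 69.2 to 204 CPM. For both octopamine receptors every library of cluster 11 lay above every library of the other clusters. Octbeta1R averaged 572, 813 and 335 CPM in clusters 7, 11 and 22, with cluster 22 below the rest in every library. Cluster 11 was above cluster 7 within each library, although their ranges over libraries overlapped (632 to 1000 and 476 to 652 CPM). Dop1R1 (1256 ± 115, 780 ± 95.4 and 1079 ± 40.6 CPM, SD, n = 6 libraries) and Dop1R2 (754 ± 119, 698 ± 61.0 and 967 ± 112 CPM) were high in all 3, and for Dop1R2 cluster 7 overlapped with each of the other clusters. The clusters were made from the same cells, so these differences are descriptions and carry no test.

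Across the wider brain each receptor had its own leading clusters. The order was read over 45 clusters with at least 50 cells in all and at least 5 in each library, from the CPM of each library (here without scaling between libraries), as a description. Dop1R1 and Dop1R2 led in the same 4 clusters, 7, 22, 11 and 37, the last a group of 171 neuron-like cells that expressed VAChT, the vesicular acetylcholine transporter, with Dop1R1 at 766 ± 121 CPM and Dop1R2 at 296 ± 78.1 CPM (SD, n = 6 libraries). For Dop1R1 clusters 7 and 22 overlapped and stood above cluster 11, and the median cluster had 61.8 CPM. Cluster 7 alone held 27.4% of all Dop1R1 UMIs in 3.27% of the cells, which were deep (median 1.905 times the library median), so that the 2 shares are not on equal depth.

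Dop2R was highest in cluster 44 at 11730 ± 2919 CPM, with 13770, 9178 and 8959 CPM in control replicates 1 to 3 and 11570, 10420 and 16470 CPM in Appl- replicates 1 to 3. Cluster 25, a cholinergic group of 255 cells, followed at 8561 ± 1780 CPM and overlapped with it, and then came clusters 1 (4807 ± 520 CPM) and 0 (4309 ± 567 CPM), the most numerous in the data. DopEcR, which responds to dopamine and to the steroid hormone ecdysone, was the most even of the 9. Its leading cluster, 33, a glutamatergic group by VGlut, had 1350 ± 161 CPM, 1.63 times the median cluster, and overlapped with 7 others. Its lowest cluster was 49, of astrocyte-like glia, at 188 ± 123 CPM.

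Octbeta2R stood furthest of the 9 above its second cluster, although its leading cluster was 17.4 times the median cluster, against 22.5 for Dop1R2, 20.3 for Dop1R1 and 20.1 for Octbeta1R. In cluster 30, called T1-like after the medulla neuron of the visual system whose markers oc, Eaat1 and Ets65A it raised, it stood at 5046, 7515 and 8883 CPM in controls and at 6706, 7267 and 9293 CPM in Appl- flies. No other cluster overlapped with it, and the next, cluster 26, had 1408 ± 306 CPM. Cluster 30 held 16.7% of all Octbeta2R UMIs in 0.869% of the cells, at a median depth of 1.613 times the library median. Its control and Appl- libraries overlapped.

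Oamb led in 2 small clusters, 45 (88 cells, VGlut) at 862 ± 114 CPM and 42 (126 cells, VAChT) at 845 ± 164 CPM, which overlapped, ahead of Kenyon cell-like cluster 11 at 404 ± 47.0 CPM. Cluster 48, 63 cells with the GABA synthesis gene Gad1, read 824 CPM pooled over libraries (95% Poisson interval 737 to 918, counting error only), having too few cells for a value in each library. Octbeta1R led in clusters 29 (2939 ± 760 CPM), 28 (2316 ± 284 CPM), 31 (2217 ± 443 CPM) and 17 (1918 ± 244 CPM), the last called Mi1-like from bsh, hth and ap, and these clusters overlapped. Octbeta3R led in cluster 26 at 694 ± 165 CPM, overlapping with clusters 29, 8, 11 and 40. Oct-TyrR was highest in clusters 15 (150 ± 67.0 CPM) and 9 (148 ± 51.0 CPM), both with VGlut, and 13 clusters overlapped with the first, so that its order is poorly resolved.

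Over the 51 clusters of at least 50 cells, Dop1R1 and Dop1R2 had the most similar pattern of any member pair (Pearson's r = 0.58 of log2(CPM + 10), a description across clusters that share libraries and differ in depth). Of the 6497 genes with at least 500 UMIs, the most like Dop1R1 was rad (r = 0.86), then cora and unc-13-4A (r = 0.77 and 0.75). For Dop1R2 they were CG34402, fend and rut (r = 0.68, 0.66 and 0.66), rut being the Rutabaga cyclase and itself one of the listed Kenyon cell markers. The closest to Dop2R were prim, Rgk2 and trv (r = 0.67, 0.67 and 0.65), to DopEcR CG14464, CG14667 and lncRNA:CR44922 (r = 0.65, 0.60 and 0.58), and to Oamb scrib, wrd and Ufd4 (r = 0.57, 0.54 and 0.53). Octbeta1R had no close partner, with rt, CG42322 and mip40 at r = 0.51, 0.47 and 0.47. For Octbeta2R the nearest were kek2, ths and cindr (r = 0.70, 0.65 and 0.65), for Octbeta3R jim, CG1090 and Dg (r = 0.59, 0.59 and 0.56), and for Oct-TyrR DIP-delta, Evi5 and Lim3 (r = 0.63, 0.62 and 0.61).

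The cells that make the ligands had a different set. Summed over clusters 32 and 44, Oamb averaged 213 ± 36.6 CPM against 94.1 ± 6.94 CPM in other neurons (log2 1.18, SE 0.15, adjusted p = 2.18e-07 by edgeR), higher in 6 of 6 libraries. Dop2R, which as an autoreceptor lowers dopamine release, read 11040, 3435 and 1925 CPM in controls and 6501, 6030 and 6238 CPM in Appl- flies, against 2076 to 3564 CPM in other neurons (log2 0.85, SE 0.14, adjusted p = 1.24e-05), higher in 5 of 6 libraries. Of the 9 receptors these 2 were called higher and 4 lower, where 2.73% of all genes tested were called higher and 6.20% lower. The lower ones were Octbeta2R (log2 -1.58, SE 0.15), Octbeta1R (-1.41, SE 0.18), Dop1R2 (-1.65, SE 0.28) and DopEcR (-0.63, SE 0.10), each lower in 6 of 6 libraries. With cells thinned to 500 UMIs the calls of Oamb (adjusted p = 0.228) and Dop2R (adjusted p = 0.0967) were not made. With the size factors of DESeq2 in place of TMM the share of higher among all called genes rose from 30.6% to 42.2%, the median of all genes moving by 0.09 on the log2 scale.

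The Dop2R signal of these cells came almost wholly from 1 of the 2 clusters. Cluster 44, with ple (the dopamine-making tyrosine hydroxylase) at 5069 CPM, Tdc2 (tyramine synthesis) at 289 CPM and the serotonin genes Trh and SerT at 705 and 362 CPM, held 5401 Dop2R UMIs, with at least 1 in 92 of 92 cells. Cluster 32, with ple at 2016 CPM, Vmat at 5197 CPM and no Tdc2, held 144 Dop2R UMIs in 212 cells, 351 CPM. In thinned cells the levels were 12020 and 322 CPM. The libraries differed in how many cells of each cluster they held, control replicate 1, with the highest sum, having 29 of its 46 monoaminergic-like cells in cluster 44, against 7 to 23 of 36 to 81 in the other libraries. They also differed in the level within cluster 44, from 8959 CPM in control replicate 3 to 16470 CPM in Appl- replicate 3.

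Glia-like cells also held RNA of neuronal genes, which limits what can be read from them. The 6 listed neuron markers stood at 53.2% to 69.4% of their level in neurons, and in fat body-like cells at 37.2% to 49.7%, and how much of this was free RNA was not tested. Of the 9 receptors 4 were called lower in glia-like than in neuron-like cells and none was called higher by edgeR (1, Dop1R1, was higher at an unadjusted p under 0.05), with 10.0% of all genes tested called lower. Those 4 were Dop1R2 (log2 -1.85, SE 0.23), DopEcR (-0.57, SE 0.12), Octbeta2R (-0.70, SE 0.15) and Oct-TyrR (-0.94, SE 0.30), each lower in 6 of 6 libraries. The call of Oct-TyrR was not made without control replicate 1, control replicate 2 or Appl- replicate 1, or in thinned cells, and that of Dop1R2 was not made in thinned cells (adjusted p = 0.184). With cells kept up to 20% mitochondrial UMIs, 8 of the 9 receptors were called. The share of all genes called at that limit is not given here, so this number is not read as a result about the receptors. Relative to neurons, DopEcR, Dop2R and Octbeta2R were at 60.5%, 58.5% and 57.2%, inside the range of the neuron markers. Dop1R2 and Oct-TyrR were below it at 26.8% and 50.9%, and Octbeta3R, Oamb, Octbeta1R and Dop1R1 were above it at 78.9%, 87.9%, 159% and 161%. The value of Octbeta1R is pooled over libraries, and in 3 of 6 of them it was lower in glia-like than in neuron-like cells, at 47.4, 217 and 59.3 CPM against 206, 240 and 234 CPM in Appl- replicates 1 to 3. The level of Dop1R1 in glia-like cells was 1021 CPM in control replicate 2 and 210 to 439 CPM in the other libraries.

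Genotype was then compared with 1 sum of UMIs per library. Over all cells, 1 of the 9 receptors was called, where 5.95% of 8511 genes tested were called, and 4 of the 9 had no overlap between control and Appl- libraries, as had 26.8% of all genes. The members' median log2 change was -0.03, beside -0.003 over all genes.

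Octbeta1R was the receptor called. It read 360, 360 and 324 CPM in control replicates 1 to 3 and 209, 243 and 238 CPM in Appl- replicates 1 to 3. The highest Appl- library was below the lowest control, and the fitted change was 1.51-fold (log2 -0.60, SE 0.10, adjusted p = 0.0163 by edgeR). The adjusted p was 0.0596, 0.0663 and 0.0776 without Appl- replicates 1, 2 and 3, so that leaving out any of these libraries ended the call. Within neuron-like cells the change was the same size (log2 -0.60, SE 0.10, adjusted p = 0.0122), 1 of 9 receptors where 5.92% of genes were called, and without Appl- replicate 2 or 3 the adjusted p was 0.0537 or 0.0674.

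Of the 4 clusters that led in Octbeta1R, 2 were also rarer among the Appl- cells without overlap. Cluster 29 made up 1.60%, 1.12% and 1.17% of the kept cells of controls and 0.411%, 0.542% and 0.412% of those of Appl- flies, without overlap. Mi1-like cluster 17 made up 2.79%, 1.60% and 1.37%, against 1.12%, 1.05% and 1.27%, also without overlap, while clusters 28 (0.833%, 0.916% and 1.03% against 0.685%, 0.944% and 0.761%) and 31 (0.630%, 0.98% and 1.27% against 0.712%, 0.991% and 0.476%) overlapped. When every library was given the same share of each of 28 clusters with at least 20 cells in every library, Octbeta1R read 294, 312 and 268 CPM in controls and 220, 234 and 237 CPM in Appl- flies. The groups still did not overlap, and the log2 change was -0.34 (exact two-sided permutation p = 0.1, the smallest that 3 against 3 allows). Cluster 29, with fewer than 20 cells in Appl- replicates 1 and 3, was not among the 28. Within it the level was 3009, 3345 and 3609 CPM in controls and 1508, 2779 and 3380 CPM in Appl- flies, which overlapped, as did cluster 17 (1745, 2347 and 1782 CPM against 1687, 2024 and 1920 CPM). The shares of clusters 29 and 17 and the level at equal cluster shares thus both moved with the genotype. Clusters 29 and 31 were left out of the reweighting, so that its log2 change and that over all cells do not cover the same cells. The part of cluster 29 in the sum over all cells was not measured.

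**Figure D3:**
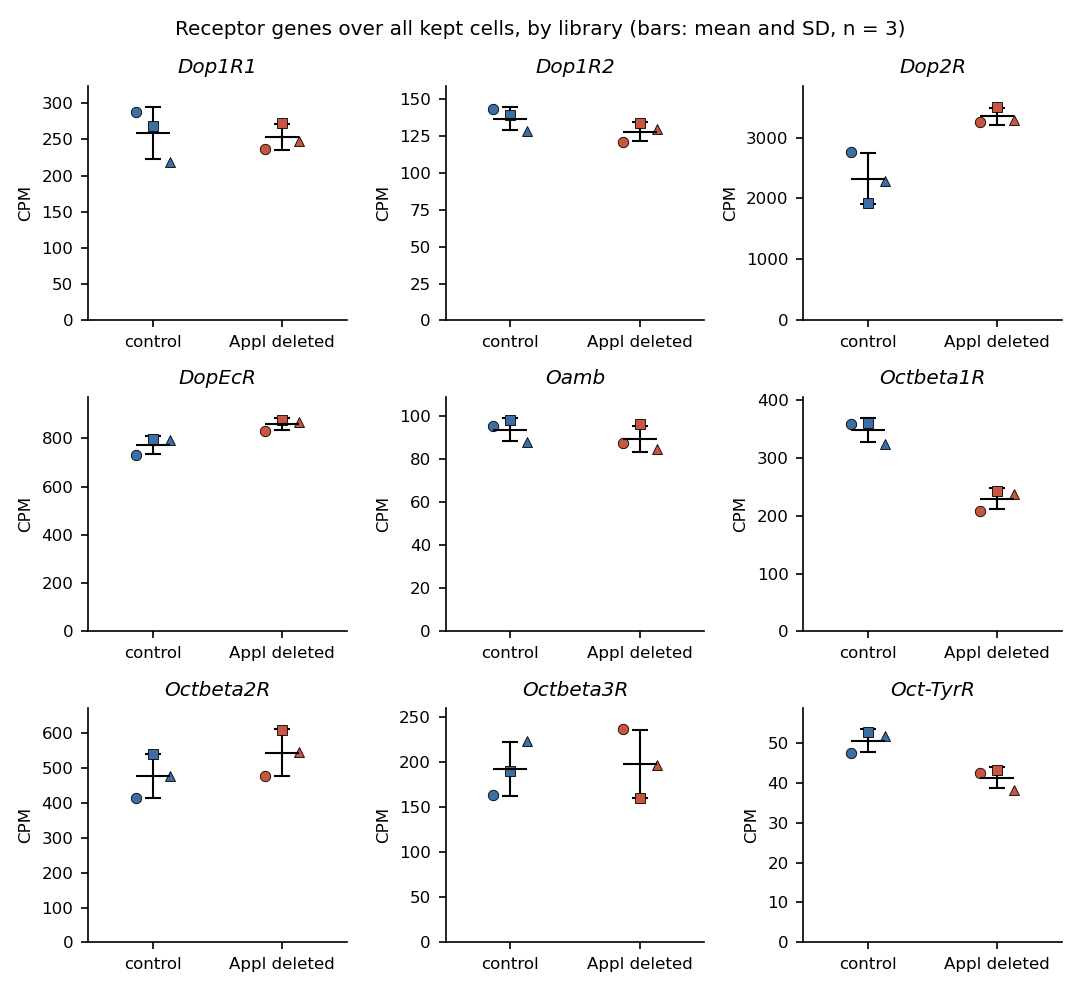
Level of the 9 receptors over all kept cells in CPM (linear axis from 0), 1 point per library with control in blue and Appl- in red, bars giving the mean and SD (n = 3). The genotypes do not overlap for Octbeta1R (324 to 360 against 209 to 243 CPM), Dop2R, DopEcR and Oct-TyrR, and only Octbeta1R passed the test.

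Dop2R went up in every Appl- library without passing the test over all cells. It read 2756, 1933 and 2294 CPM in controls and 3248, 3495 and 3292 CPM in Appl- flies, a log2 difference of 0.52 (SE 0.14, adjusted p = 0.0737 by edgeR). The labels do not say that equal replicate numbers share a batch, and the pairing was read from correlations in these data. With the number as a block the adjusted p was 0.0487 and the call was made. It was also made by DESeq2 (0.0029) and without control replicate 1 (0.0144), the library with most discarded barcodes. Those were 3 of 15 alternative settings, and the adjusted p reached 0.301 in the others. Within neuron-like cells the difference was 0.47 (SE 0.13, adjusted p = 0.0802, or 0.0351 with the block and 0.0080 without control replicate 1). There Dop2R was called in 4 of 18 alternative settings, with an adjusted p of up to 0.333. With equal cluster shares the difference was 0.34, with no overlap (2324 to 2846 against 3187 to 3558 CPM).

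The remaining receptors differed less over all cells. Oct-TyrR read 47.3, 52.7 and 51.6 CPM in controls and 42.3, 43.1 and 38.2 CPM in Appl- flies, without overlap (log2 -0.29, SE 0.09, adjusted p = 0.106), and in neuron-like cells its log2 difference was -0.33 (adjusted p = 0.0625, or 0.0236 with the block). The block gave the 1 call of Oct-TyrR in neuron-like cells among 18 alternative settings. DopEcR stood at 729 to 796 CPM in controls and at 831 to 877 CPM in Appl- flies (log2 0.15, SE 0.08, adjusted p = 0.355). Dop1R1, Dop1R2, Oamb, Octbeta2R and Octbeta3R overlapped between genotypes, with log2 differences from -0.10 to 0.19 and SEs of 0.08 to 0.17.

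In Kenyon cell-like cells the receptor called was Oct-TyrR. Pooled over the libraries of both genotypes its level there was 23.6 CPM. Fat body-like cells, nearly all from controls, had 28.8 CPM, from 9 UMIs. Without scaling between libraries, the Kenyon cell-like cells read 35.8, 37.5 and 40.6 CPM in controls, above that reference. In Appl- flies they read 3.13, 8.92 and 12.9 CPM, below that reference. With cells thinned to 500 UMIs, 0.652% of Kenyon cell-like and 1.52% of fat body-like cells held a UMI of Oct-TyrR, again over both genotypes. How much of the signal in either genotype was free RNA was not tested. Oct-TyrR read 37.1, 38.5 and 40.6 CPM in control replicates 1 to 3 and 3.12, 9.08 and 12.9 CPM in Appl- replicates 1 to 3. Controls lay close to each other and every Appl- library lay below them, 4.77-fold lower in the fit (log2 -2.25, SE 0.33, adjusted p = 0.000219 by edgeR over 5163 genes). Of the 9 receptors this was the 1 called, where 5.73% of genes were called, and the members' median log2 change was -0.25 beside -0.01 over all genes. The counts behind it were small, 58, 37 and 34 UMIs in controls (in 43, 25 and 27 cells) and 3, 13 and 8 UMIs in Appl- flies (in 3, 12 and 7 cells). Of all 153 UMIs, 147 were in cluster 7, where the levels were 41.7, 44.6 and 52.5 CPM against 5.65, 13.5 and 18.6 CPM, and cluster 11 had 6. The call was made under all 18 alternative settings in which the gene could be tested, each library left out in turn included, and thinning to 500 UMIs left 9 UMIs, too few for a test.

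The change of Oct-TyrR in Kenyon cell-like cells differed from that in other neurons. In other neurons it read 47.7 to 53.0 CPM in controls and 38.0 to 43.2 CPM in Appl- flies, and the test of the difference between the genotype effects gave a log2 of -2.01 (SE 0.32, adjusted p = 0.0021 by edgeR). Dop1R1 also passed this test, at -0.56 (SE 0.09, adjusted p = 0.0026). It read 1396, 1374 and 1221 CPM in the Kenyon cell-like cells of controls and 963, 1191 and 1030 CPM in those of Appl- flies, every Appl- value below every control value, while other neurons read 145 to 167 CPM in controls and 172 to 195 CPM in Appl- flies. Within cluster 7 Dop1R1 read 1397, 1356 and 1276 CPM in controls and 1159, 1255 and 1094 CPM in Appl- flies, without overlap (log2 -0.24, SE 0.12, adjusted p = 0.334), and within cluster 11, where its level is lower, 748, 870 and 842 CPM against 604, 806 and 809 CPM, which overlapped (log2 -0.15, SE 0.16, adjusted p = 0.767). Cluster 7 gave a smaller part of the Kenyon cell-like cells in every Appl- library than in any control, and its part in the change of Dop1R1 was not tested. So 2 of 9 receptors were called, where 1.56% of 7741 genes were called. Within Kenyon cell-like cells alone the change of Dop1R1 was not called (log2 -0.33, SE 0.12, adjusted p = 0.131). It was called in 1 of 19 alternative settings, the replicate block (adjusted p = 0.0025).

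Other receptors in Kenyon cell-like cells fell short of the call. Dop2R read 2390, 2164 and 2364 CPM in controls and 2545, 3165 and 3202 CPM in Appl- flies, without overlap (log2 0.37, SE 0.12, adjusted p = 0.0791, or 0.0117 without Appl- replicate 1 and 0.00016 with the block). It was called in 2 of 19 alternative settings, with an adjusted p of up to 0.326. Octbeta1R read 688, 722 and 710 CPM and 584, 576 and 591 CPM, also without overlap (log2 -0.28, SE 0.11, adjusted p = 0.198). With the block, Oamb (log2 0.37, adjusted p = 0.0334) and Octbeta2R (adjusted p = 0.0500, at a level no higher than in fat body-like cells) were called too, making 5 of the 9. The block also raised the calls among all genes, in cluster 7 from 252 to 325 of 4545. The number of receptors called with it is therefore not read as a result about them. Clusters 7 and 11 were not present in equal parts, cluster 7 giving 265 of 352, 111 of 164 and 106 of 183 Kenyon cell-like cells in controls and 86 of 204, 181 of 326 and 74 of 151 in Appl- flies. The genes that differ between these clusters move with that share, and the part it has in them was not tested, apart from the values within clusters. The 8 Kenyon cell markers summed to 21720 to 26530 CPM in controls and 21380 to 24680 CPM in Appl- flies, and the 10 glia markers to 206 to 420 and 192 to 265 CPM.

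**Figure D4:**
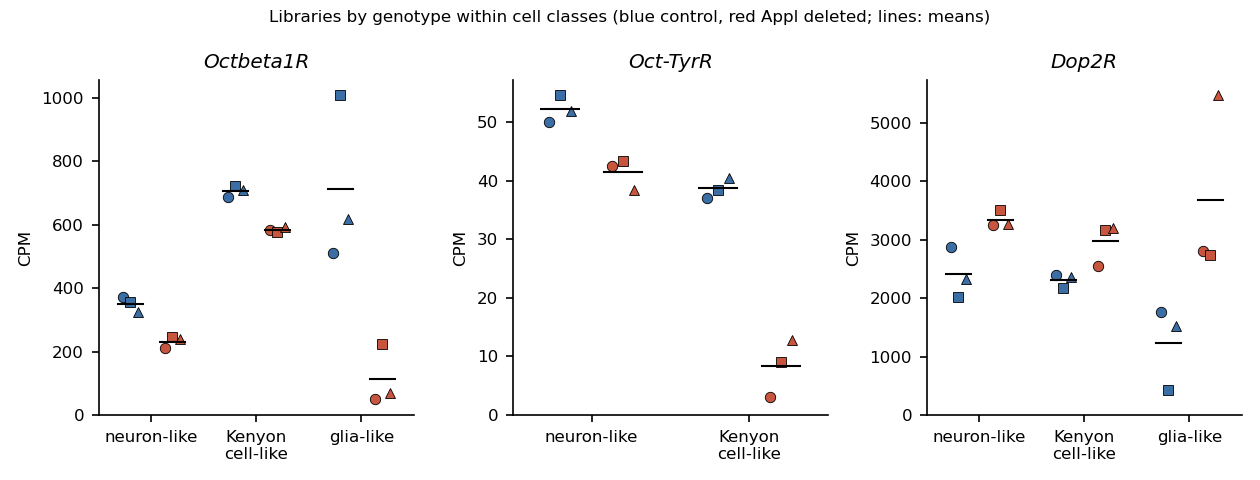
Level of Octbeta1R, Oct-TyrR and Dop2R in CPM (linear axis from 0) in neuron-like, Kenyon cell-like and glia-like cells, 1 point per library with control in blue and Appl- in red, and lines at the means; Oct-TyrR had too few counts in glia-like cells to be tested and is not drawn there. The genotypes do not overlap in any panel shown, which is a description. The share of all genes without overlap was taken only over all cells (26.8%), not within these classes. The calls were Octbeta1R in neuron-like and glia-like cells and Oct-TyrR in Kenyon cell-like cells.

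In glia-like cells 1 of the 7 receptors with enough counts (all but Dop1R2 and Oct-TyrR) was called, where 1.32% of 2648 genes were called. Octbeta1R read 511, 1008 and 616 CPM in controls and 51.1, 223 and 68.5 CPM in Appl- flies, without overlap (log2 -2.49, SE 0.48, adjusted p = 0.0235 by edgeR). The UMIs behind it, 189, 277 and 95 in controls and 6, 46 and 5 in Appl- flies, came from few cells, the top 5 cells of each control library holding 73.5%, 91.3% and 92.6% of them and single cells up to 119. The cell with most of them held 31301, 70069 and 11443 UMIs of all genes in control replicates 1 to 3. In Appl- replicates 1 to 3 it held 2221, 15801 and 2300 UMIs, and the median glia-like cell held 2495. Whether such deep barcodes were single cells was not tested. With each cell thinned to 500 UMIs the levels were 396, 246 and 143 CPM against 143, 135 and 121 CPM, from 2 to 19 UMIs in a library, too few for a test. The call was not made without control replicate 1 (adjusted p = 0.0514), control replicate 2 (0.0631), Appl- replicate 1 (0.132) or Appl- replicate 3 (0.192).

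The make-up of the glia-like cells moved with Octbeta1R. The summed level of 4 listed cortex glia markers was 2150, 2723 and 875 CPM in controls and 431, 578 and 217 CPM in Appl- flies, with 1 of the 3 tested called lower, while that of 5 astrocyte markers was 780 to 3019 CPM and 2275 to 4401 CPM. The 5 surface glia markers, none of which could be tested, summed to 103, 351 and 88.8 CPM in controls and 30.3, 77.4 and 25.5 CPM in Appl- flies, without overlap and highest in control replicate 2, as Octbeta1R was. The 10 general glia markers summed to 6347 to 6450 CPM and 5242 to 7859 CPM. Their part in the result was not tested, and in a sum over few cells fewer cells of a kind and less RNA per cell cannot be told apart. Dop2R in glia-like cells read 1762, 429 and 1524 CPM in controls and 2801, 2745 and 5477 CPM in Appl- flies (log2 1.56, SE 0.47, adjusted p = 0.170, or 0.0029 with the block and 0.0419 by DESeq2). It was called there in 3 of 18 alternative settings, with an adjusted p of up to 0.516.

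Cluster by cluster, 193 tests of a receptor in 1 of 28 clusters gave 9 calls, where 2.14% of 85483 pairs of a gene and a cluster were called. Calls differed in number and direction between receptors. Dop2R was called higher in clusters 5 (log2 0.73, SE 0.16), 16 (1.31, SE 0.24) and 34 (0.81, SE 0.17), and its log2 change was above 0 in 22 of the 27 clusters where it was tested, with a median of 0.30. Octbeta1R was called lower in glia-like cluster 20 (-2.56, SE 0.49) and was below 0 in 20 of 23 clusters, with a median of -0.41. Oct-TyrR was called lower in clusters 7 (-1.92, SE 0.32) and 1 (-0.69, SE 0.15) and was below 0 in 13 of 13 clusters, with a median of -0.38. The clusters share libraries and are not independent of each other. The share of all genes with as even a sign over clusters is not given here, so these counts of signs are descriptions. With the replicate block 24 calls were made, of which 12 were Dop2R higher and 5 Octbeta1R lower. The block raised calls among all genes too, from 74 to 168 in cluster 5 and from 27 to 51 in cluster 16. In cluster 34 they went from 20 to 23 and in cluster 20 from 17 to 82. The rise in receptor calls is therefore not read as a result about the receptors.

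The values behind these calls did not overlap between genotypes, which adds no further evidence, because the calls were picked from these same values. In cluster 5, cells with Gad1, Dop2R read 1261, 993 and 1224 CPM in controls and 2115, 1607 and 2010 CPM in Appl- flies. In cluster 34 it read 1555, 1576 and 2025 CPM against 3040, 3323 and 2726 CPM. In cluster 16, where Dop2R is low, it read 394, 222 and 228 CPM against 753, 697 and 484 CPM. These 3 clusters lie below the leading Dop2R clusters 25, 1 and 0, of which cluster 1 (log2 0.26, adjusted p = 0.465) and cluster 0 (log2 0.24, adjusted p = 0.509) were not called. Cluster 25 had too few cells in Appl- replicate 1 for the test, and read 6668, 6825 and 7549 CPM in controls and 9286, 10640 and 10400 CPM in Appl- flies, without overlap. The other calls were Dop1R2 lower in cluster 5 (80.6, 94.4 and 116 CPM against 52.4, 41.9 and 40.2 CPM), DopEcR higher in cluster 14 (731, 684 and 613 CPM against 961, 958 and 1033 CPM) and Octbeta2R higher in cluster 18 (669, 687 and 711 CPM against 1100, 1265 and 1149 CPM). In each of them the genotypes did not overlap.

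Of these 9 calls only Oct-TyrR in cluster 7 was made under all 13 settings in which it could be tested. Oct-TyrR in cluster 1 was not called once any library was left out (adjusted p 0.0653 to 0.194), and with cells thinned to 500 UMIs its direction turned (log2 0.13, adjusted p = 0.988). DopEcR in cluster 14 and Octbeta2R in cluster 18 were not called without control replicate 2 or 3 or any Appl- library (0.106 to 0.234 and 0.0682 to 0.257). Dop2R was not called in cluster 5 without control replicate 2 or 3 or Appl- replicate 1 or 3 (0.108 to 0.139), in cluster 16 without control replicate 2 or 3 or Appl- replicate 2 or 3 (0.0518 to 0.117), or in cluster 34 without control replicate 2 or Appl- replicate 1 or 2 (0.0540 to 0.117). Dop1R2 in cluster 5 was lost without control replicate 3 or Appl- replicate 2 or 3 (0.0955 to 0.104), and Octbeta1R in cluster 20 without control replicate 1 or 2 or Appl- replicate 1 or 3 (0.0798 to 0.157).

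**Figure D5:**
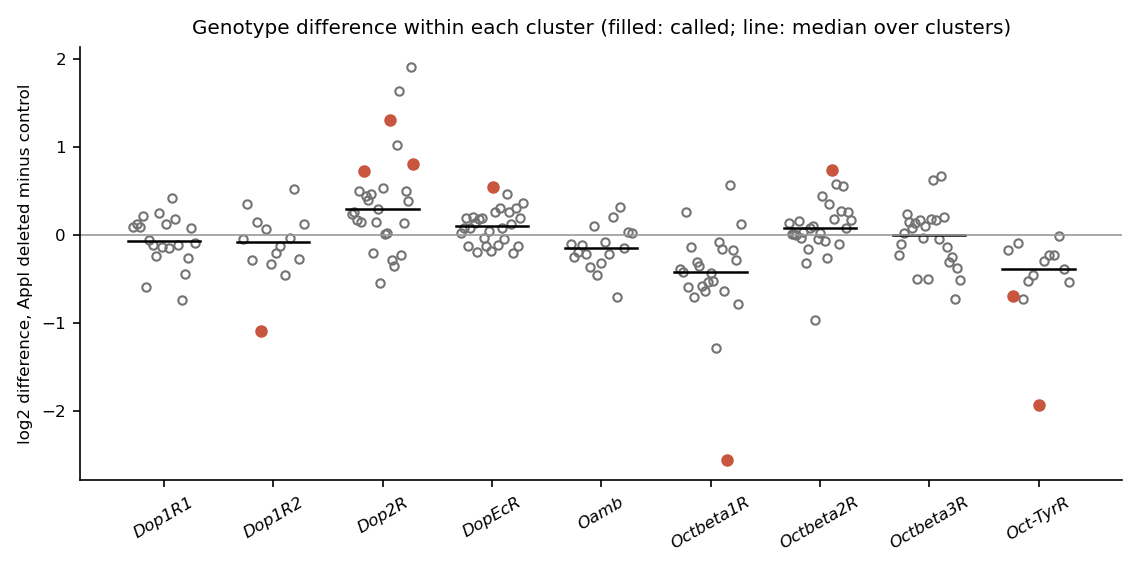
Log2 change of each receptor in Appl- relative to control flies within each of 28 clusters, 1 point per cluster in which the gene was tested, with filled points for the 9 calls and a line at the median over clusters. Octbeta1R lies below 0 in 20 of 23 clusters, Oct-TyrR in 13 of 13, and Dop2R above 0 in 22 of 27. The clusters share libraries, so these counts are descriptions.

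The genes that make, carry and relay the amines were followed in a list of 47. Over all cells 45 could be tested and 3 were called, 2 higher and 1 lower, a share near the 5.95% of all genes, and the median log2 change was -0.02, beside -0.003 over all genes. Ac3, an adenylyl cyclase, averaged 228 ± 28.1 CPM in controls and 333 ± 33.8 CPM in Appl- flies (SD, n = 3 each, log2 0.55, adjusted p = 0.0486), and Pkc53E, a protein kinase C, averaged 575 ± 42.3 and 765 ± 37.3 CPM (log2 0.41, adjusted p = 0.0486). The lower gene was e (ebony), which conjugates dopamine in glia, at 5.61 to 51.2 CPM in controls and 2.47 to 3.98 CPM in Appl- flies (log2 -3.32, adjusted p = 0.0478). In glia-like cells, where it is concentrated, e read 240 to 2011 CPM and 178 to 219 CPM (log2 -2.76, adjusted p = 0.0450). It was the 1 called of 31 list genes tested there, where 1.32% of all genes were called. Glia-like cells made up 2.16%, 1.68% and 1.37% of the kept cells of controls and 1.15%, 1.16% and 1.05% of those of Appl- flies, without overlap, and the cortex glia markers given above were lower in their sum. The part of either in the values of e was not tested.

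In Kenyon cell-like cells 3 of the 34 list genes tested were called, where 5.73% of all genes were, so that the count says little about the list and the values below are those of single genes. Ac78C, a further cyclase, fell from 189 ± 29.4 to 96.6 ± 6.77 CPM (log2 -0.98, SE 0.16, adjusted p = 0.00053), and its change differed from that in other neurons (log2 -1.17, SE 0.15, adjusted p = 0.00021). The Rutabaga cyclase gene rut fell from 3050 ± 198 to 2356 ± 91.1 CPM (log2 -0.37, SE 0.11, adjusted p = 0.0462), and it fell by a like amount in all neuron-like cells (log2 -0.42, adjusted p = 0.0370). Pkc53E rose from 1790 ± 24.1 to 2364 ± 69.4 CPM (log2 0.40, SE 0.10, adjusted p = 0.0248). The cAMP phosphodiesterase dnc was called only in the test of the difference between Kenyon cell-like and other neurons (log2 -0.39, SE 0.08, adjusted p = 0.0114).

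Of the genes that make and carry the amines, ple, DAT, Vmat and Tdc2 varied widely between libraries of 1 genotype, while Tbh and Ddc did not. Over all cells ple read 23.8 to 53.6 CPM in controls and 34.4 to 60.8 CPM in Appl- flies (log2 0.51, SE 0.33, adjusted p = 0.457), and the dopamine transporter DAT read 20.8 to 70.3 and 30.2 to 34.8 CPM (log2 -0.27, SE 0.42, adjusted p = 0.793). Vmat, which loads amines into vesicles, read 114 to 288 and 82.2 to 265 CPM (log2 -0.20, SE 0.46, adjusted p = 0.870). For octopamine, Tdc2 read 2.10 to 11.6 and 2.69 to 13.0 CPM (adjusted p = 0.939), and Tbh, which makes octopamine from tyramine, read 35.4 to 39.0 and 40.4 to 52.2 CPM without overlap (log2 0.32, SE 0.11, adjusted p = 0.152). Ddc, the decarboxylase that makes dopamine and serotonin, chosen after its values were seen, read 725 to 770 and 875 to 989 CPM, also without overlap (log2 0.31, SE 0.09, adjusted p = 0.0881).

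Some counts may be shared with neighbours. In the BDGP6.54 annotation 6 of the receptor genes lie on chromosome arm 3R, DopEcR and Oct-TyrR on 3L and Dop2R on X, the chromosome that also carries Appl. Octbeta3R overlaps Hug on the other strand and ends 109 bases from Hsp70Bc, a heat shock gene with 33165 UMIs, and Octbeta1R lies 9 bases from CG5346, which had 149 UMIs. Whether the counting used the strand of the reads is not stated in the sources used here, so that the values of Octbeta3R in particular are uncertain.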

How the data were processed

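Single-cell libraries (10x 3' kit) from 3 control and 3 Appl- samples were used. The authors deposited UMI counts per gene and barcode made with Cell Ranger 6.0, not normalized; the genome build is not given in the sources used here, and 5571 rows for transposable element insertions were left out. Barcodes needed 200 detected genes and a mitochondrial share of UMIs of no more than 10%, the limit of the study. Nothing states whether the libraries of a genotype came from separate cohorts, so p-values measure the spread between these libraries.

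Cells were clustered in scanpy 1.11.5 (Python 3.11.15, 2000 variable genes without the 9 receptors, 30 principal components, Leiden resolution 1, leidenalg 0.10.2). A marker counted as raised at 2 times its level in all other cells and in 10% of cells. A name other than neuron-like needed 3 raised markers. Neuron-like clusters needed 3 of the 6 neuron markers detected in 50% of cells, raised or not. They also had fewer than 3 raised markers of glia, fat body, hemocytes or photoreceptors. Glia-like cluster 20 met the first of these rules too, with all 6 neuron markers detected. Scrublet marked 2 of 25188 cells and so did not work as a doublet caller, and no cell was removed as a doublet. UMIs were summed per library and class and tested in R 4.3.3 with edgeR 4.0.16 (quasi-likelihood, TMM, filterByExpr), with Benjamini-Hochberg adjustment over all genes tested. A call needed an adjusted p under 0.05 and a change of 1.25-fold, the thresholds of the study. Comparisons between classes had 1 term per library. DESeq2 1.42.0, and edgeR without the filter, with other size factors, with thinned cells, with other clusterings and with libraries left out, were alternatives. The analysis was tested on simulated counts with known changes. Poisson intervals cover counting error only.

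Deviations from the genotype means were correlated between libraries of equal replicate number (correlations 0.246, 0.207 and 0.333), so that the number was taken as a pair in the blocked fit. The labels do not say that equal numbers share a day or batch. The block was chosen from these same data, and its calls are given as an alternative only. The text names all 9 receptors, Appl, up to 6 called genes of the amine pathway list, the 5 ligand genes ple, DAT, Vmat, Tdc2 and Tbh, and the 3 genes most correlated with each receptor, and other genes named were markers. The receptors, gene lists and markers were chosen with earlier results of these data known.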

Additional observations from a re-analysis of the deposited data

Results flagged for a closer look

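For 2 receptors the effect of genotype differed between Kenyon cell-like and other neuron-like cells by the test of the difference itself. For Oct-TyrR the difference in log2 change was -2.01 (SE 0.32, adjusted p = 0.0021 by edgeR), with 3 of 3 Appl- libraries below every control library in Kenyon cell-like cells. Pooled over both genotypes its level in Kenyon cell-like cells was 23.6 CPM, beside 28.8 CPM in fat body-like cells, the reference for free RNA. Those were nearly all control cells, and the Kenyon cell-like cells of controls alone read 35.8 to 40.6 CPM. How much of the signal was free RNA was not tested. For Dop1R1 the difference in log2 change was -0.56 (SE 0.09, adjusted p = 0.0026), also with 3 of 3 Appl- libraries below every control library in Kenyon cell-like cells. Within cluster 7 alone the change of Dop1R1 was -0.24 (adjusted p = 0.334) and within cluster 11 it was -0.15 (adjusted p = 0.767), where the libraries overlapped, and cluster 7, with the higher level, gave a smaller part of the Kenyon cell-like cells in Appl- flies. Both were called under 16 of 17 settings and not with cells thinned to 500 UMIs, where the log2 differences were -2.76 (adjusted p = 0.685) and -0.41 (adjusted p = 0.586).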

How the results depend on the processing

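Of 10 counts of calls followed, 8 moved by over 1.5 times under some setting. Over all cells 1 receptor was called, 2 by DESeq2 and 2 with the replicate block, and 0 to 2 with a library left out, while 506 genes were called in all, 271 with thinned cells, 857 by DESeq2, 915 with the block and 159 to 605 with a library left out. In neuron-like cells 1 was called, 2 at a mitochondrial limit of 20%, 2 by DESeq2, 3 with the block and 0 to 2 with a library left out. In Kenyon cell-like cells 1 was called, 0 with thinned cells (where Oct-TyrR had too few UMIs to be tested), 5 with the block and 1 to 2 with a library left out. In glia-like cells 1 was called, 0 with thinned cells, 2 without the filter on low counts, 2 by DESeq2, 2 with the block and 0 to 1 with a library left out. Between glia-like and neuron-like cells 4 were called, 8 at a mitochondrial limit of 20% and 2 with thinned cells. In the test of the difference between Kenyon cell-like and other neurons 2 were called, 0 with thinned cells, 5 without the filter and 2 to 4 with a library left out. Within clusters 9 calls became 5 at a mitochondrial limit of 20%, 1 with thinned cells, 16 without the filter, 24 with the block and 2 to 16 with a library left out. Outside the sum over all cells these counts stand without the share of all genes called, and are not read as results about the receptors. The counts for Kenyon cell-like against other neurons and for monoaminergic-like cells stayed within 1.5 times. Counting cluster 22 as Kenyon cell-like was chosen after seeing the data. The cause of these differences was not tested, apart from the lower counts of UMIs left by thinning. Beyond the calls named in the report the block changed no call of a receptor over all cells or in a class. No paired analysis was possible for comparisons between classes because each library is already a term. Low counts limit Oct-TyrR most, and few cells limit glia.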
